A study of Mus musculus with 22 samples.

Results

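The 5 genes described here, of 24411 in each deposited table, encode the enzymes that write and erase the O-GlcNAc mark and proteins known to bind the writing enzyme. They were chosen by name, though with earlier results of these data known: Ogt, Mgea5 (the older symbol of Oga), Hcfc1, Bap1 and Sin3a. All of them were present in both tables and passed the filter on low values. They were measured by RNA-seq in 22 libraries of primary neural stem cells from the hippocampus of adult mice, grown on a coated plate in Neurobasal A with B27, EGF and bFGF. In the knockdown arm, 5 libraries (shOgt) were from cells exposed for 3 days to a lentivirus whose short hairpin RNA targets Ogt, and 6 (shLuc) from cells that received a virus with a luciferase hairpin, both at 10 viral particles per cell. In the inhibitor arm, 5 libraries were from cells kept for 24 h in 12.5 µM OSMI-1, a compound that inhibits the OGT enzyme, and 6 from cells given the same volume of its solvent DMSO (vehicle). The arms thus differ in both agent and time. The labels give no strain, exact age, sex or hairpin sequence, and do not state whether replicate libraries stem from different animals or culture wells, so p-values reflect only how these libraries scatter, which may be technical.

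O-GlcNAc is a single N-acetylglucosamine sugar placed on serines and threonines of nuclear and cytosolic proteins. OGT is the transferase that adds it and OGA, encoded by Mgea5, is the hydrolase that removes it. In mammalian cells the messenger RNAs of this enzyme pair are known to respond to the level of the mark itself. OGT also binds chromatin regulators. HCF-1, the product of Hcfc1, is a transcriptional co-regulator that OGT both glycosylates and cleaves. BAP1 is a deubiquitinase of histone H2A that binds HCF-1 and is found with OGT. SIN3A is the scaffold of a histone deacetylase complex that recruits OGT to promoters.

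Values are the authors' normalized read counts, that is, reads divided by a size factor for each library. Depth was 7.22 to 11.2 M reads in shOgt, 9.85 to 13.2 M in shLuc, 4.59 to 12.8 M in OSMI-1 and 4.52 to 5.93 M in vehicle. The stem cell marker list of 12 genes, with Nes and Sox2 among them, summed to 36397 to 41828 normalized counts in shOgt and 40623 to 45364 in shLuc, and to 19736 to 21214 in OSMI-1 and 24131 to 28736 in vehicle. The 9 markers of the oligodendrocyte lineage summed to 10014 to 11543 in shOgt against 17784 to 20743 in shLuc, with Mog at 0 in every library of that arm, and to 10944 to 14664 in OSMI-1 against 9718 to 12284 in vehicle. Olig1 made up most of that sum, at a mean of 10256 in shOgt and 18601 in shLuc. Within the stem cell list Vim ran against the sum after the hairpin, at 10928 in shOgt and 7745 in shLuc. After OSMI-1, Egfr (1112 in OSMI-1, 775 in vehicle), Sox9 (1139 and 961), Notch1 (707 and 622) and Nes (3027 and 2892) ran against it. Fabp7 (6282 and 8976), Slc1a3 (3455 and 5318) and Vim (4329 and 6095) were lower in OSMI-1. Of the 11 stem cell markers tested, 1 rose and 4 fell after the hairpin, and 2 rose and 4 fell after OSMI-1. The 8 neuronal markers summed to 3096 to 3514 in shOgt and 3339 to 4155 in shLuc, and to 2228 to 3071 in OSMI-1 and 1919 to 2386 in vehicle. Map2 made up most of these sums, at a mean of 2576 in shOgt, 3375 in shLuc, 2460 in OSMI-1 and 1862 in vehicle. Syt1 stood at 261 in shOgt and 46.4 in shLuc. Of the 5 neuronal markers tested, 2 rose and 1 fell after the hairpin, and 1 rose and 3 fell after OSMI-1. Of all tested genes 31.8% and 24.8% were called in these comparisons. The sums of the 7 astrocyte markers overlapped in both arms. Single astrocyte markers did change: 1 of 6 tested fell after the hairpin, and 2 of 5 rose and 1 fell after OSMI-1. The 5 ependymal and choroid plexus markers summed to 133 to 192 in shOgt and 71.6 to 172 in shLuc, and to 51.3 to 97.5 in OSMI-1 and 119 to 186 in vehicle, with Tmem212 at 0. Folr1 alone was higher after the hairpin, at a mean of 107 in shOgt and 42.1 in shLuc. Foxj1 (48.5 in shOgt, 69.3 in shLuc) and the low Ttr and Ccdc153 had lower means in shOgt. The 8 microglial and immune markers summed to at most 42.7 and the 9 endothelial, mural and fibroblast markers to at most 33.9 in any library. Because these are bulk samples, fewer cells of a type and less RNA per cell cannot be told apart, and the part of these marker shifts in the results below was not tested.

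Ogt, the transferase gene and the target of the hairpin, lies on chrX:101640060-101684351 (GRCm38, plus strand) with 8045 exonic bases. Its annotated 3′UTR holds the 7 letters AACATGC at 2 places, on the plus strand at chrX:101682399-101682405 and chrX:101683051-101683057. This word was searched because it had already been seen among the genes that fell most after the hairpin, so its presence supports nothing by itself. The sites are shown with 11 bases on each side and the word in capitals, since they set Ogt apart from the other 4 genes, none of which carries the word in a 3′UTR.
Ogt site 1: gggaactagatAACATGCtttgtgtgtat
Ogt site 2: tgtttctctcgAACATGCcatctggtgcc
Among all 20999 genes with an annotated 3′UTR, 8.61% hold this word on the coding strand. A match is a string of letters, binding was not measured, and whether it bears on any value below was not tested.

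In the knockdown arm Ogt stood at 401, 418, 349, 430 and 524 normalized counts in shOgt replicates 1, 2, 3, 5 and 6, against 831, 1004, 737, 789, 822 and 836 in shLuc replicates 1 to 6. Every shOgt library lay below every shLuc library, a separation shown downward by 9.96% of the 12136 genes tested. The mean was 424 ± 63.9 in shOgt, which is 50.8% of the 836 ± 89.8 in shLuc (SD, n = 5 and 6). Ogt fell with a log2 fold change of -0.98 ± 0.11 (SE, 95% interval -1.21 to -0.76, limma adjusted p = 1.1e-06). In this comparison 16.4% of tested genes fell and 1.59% had a smaller p than Ogt.

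Ogt moved the other way when the enzyme was inhibited. It stood at 632, 563, 568, 579 and 658 normalized counts in OSMI-1 replicates 1, 2, 4, 5 and 6, against 404, 506, 464, 445, 486 and 427 in vehicle replicates 1 to 6. Every OSMI-1 library lay above every vehicle library, which 6.27% of the 11349 tested genes did. The mean was 599.9 ± 42.5 in OSMI-1 and 455 ± 37.6 in vehicle, 132% of vehicle, and Ogt rose by 0.40 ± 0.08 (log2, limma adjusted p = 0.001), as did 11.6% of tested genes. Falling after the hairpin and rising after the inhibitor was shared by 209 of the 11269 genes tested in both arms (1.85%). The difference between its log2 fold changes in the arms was -1.38 ± 0.13 (limma on all 4 groups, adjusted p = 2.9e-09), where 22.9% of genes differed. The counts sum all transcripts of the gene, 3 of whose 7 annotated transcripts are retained-intron forms, so isoforms were not separated.

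**Figure D1:**
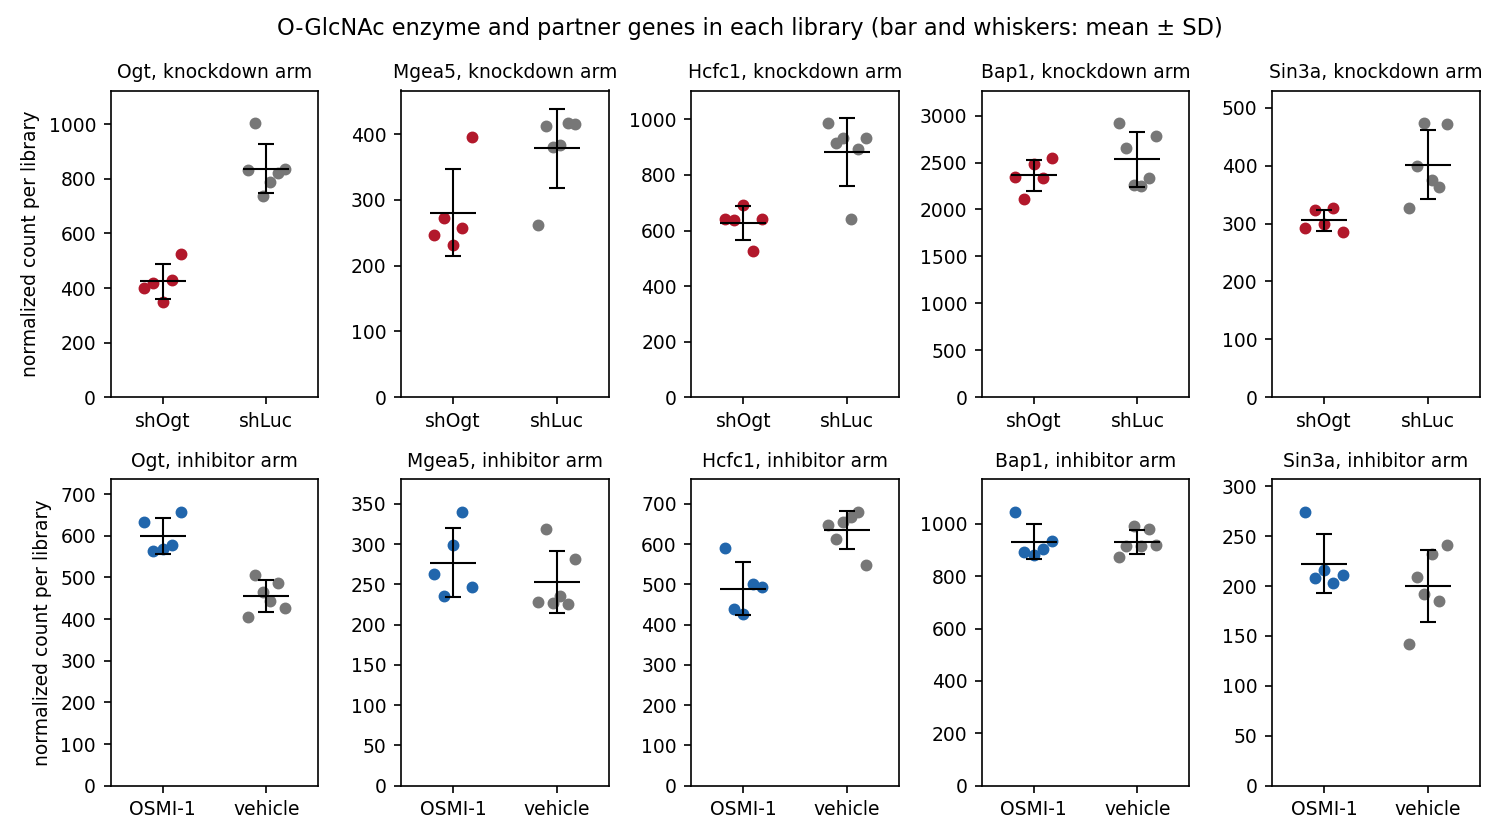
Normalized read counts (vertical axes, starting at 0) of the 5 genes in each library, 1 panel per gene and arm, with shOgt left of shLuc and OSMI-1 left of vehicle. Points are libraries, and lines and bars give the mean and SD. Only for Ogt do the groups not overlap in both arms, with shOgt below shLuc (424 against 836) and OSMI-1 above vehicle (599.9 against 455).

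Mgea5, the gene of the O-GlcNAc hydrolase, lies on chr19:45750259-45783837 (GRCm38, minus strand). It stood at 246, 272, 232, 257 and 395 normalized counts in shOgt replicates 1, 2, 3, 5 and 6, against 261, 412, 380, 383, 417 and 416 in shLuc replicates 1 to 6. The groups overlapped through 2 libraries: shOgt replicate 6 was high and shLuc replicate 1 was low. For Ogt, shOgt replicate 6 was again the highest of its group, whereas shLuc replicate 1 lay near the middle of its own. The mean was 281 ± 65.9 in shOgt and 378 ± 59.7 in shLuc, 74.1% of shLuc. Mgea5 fell by 0.44 ± 0.15 on the log2 scale (limma adjusted p = 0.029), and 27.7% of tested genes had a smaller p. The call did not hold when shOgt replicate 1, 2, 3 or 5 or shLuc replicate 2, 4, 5 or 6 was left out (adjusted p 0.051 to 0.078), while over the leave-one-out fits the log2 fold change stayed between -0.57 and -0.38. An annotated antisense gene, Gm15491, shares 551 exonic bases with Mgea5, and whether reads were counted by strand is not given in the sources used here.

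After OSMI-1, Mgea5 stood at 263, 235, 299, 340 and 246 normalized counts in replicates 1, 2, 4, 5 and 6, against 228, 319, 227, 235, 226 and 282 in vehicle replicates 1 to 6. The groups overlapped over most of their ranges, with OSMI-1 replicate 5 alone above the highest vehicle library. The means were 277 ± 42.8 in OSMI-1 and 253 ± 38.9 in vehicle, a log2 fold change of 0.13 ± 0.12 with a 95% interval from -0.12 to 0.38 (limma adjusted p = 0.47). The Mgea5 response differed between the arms by -0.57 ± 0.20 (limma on all 4 groups, adjusted p = 0.034). This call was lost in 13 of the 22 leave-one-out fits, without shOgt 1, 2, 3 or 5, shLuc 2, 5 or 6, OSMI-1 4 or 5, or vehicle 1, 3, 4 or 5, with adjusted p between 0.0504 and 0.076 there.

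The RNA of the enzyme pair was also compared as the ratio of Ogt to Mgea5 normalized counts within a library, given here as a description with no test. Protein and enzyme activity were not measured in these libraries. The ratio was 1.63, 1.54, 1.51, 1.67 and 1.33 in shOgt replicates 1, 2, 3, 5 and 6, against 3.18, 2.43, 1.94, 2.06, 1.97 and 2.01 in shLuc replicates 1 to 6. Every shOgt library lay below every shLuc library, although shLuc replicate 1, with its low Mgea5, stood well above the rest. The mean ratio was 1.53 ± 0.134 in shOgt and 2.27 ± 0.484 in shLuc. Both genes were lower in shOgt, and Ogt was lower by more. In the inhibitor arm the ratio was 2.40, 2.39, 1.90, 1.70 and 2.67 in OSMI-1 replicates 1, 2, 4, 5 and 6, against 1.78, 1.59, 2.04, 1.89, 2.15 and 1.51 in vehicle replicates 1 to 6. These groups overlapped, with means of 2.21 ± 0.398 in OSMI-1 and 1.83 ± 0.252 in vehicle. The ratio is not corrected for gene length, and the exonic lengths of 8045 and 8592 bases are close.

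**Figure D2:**
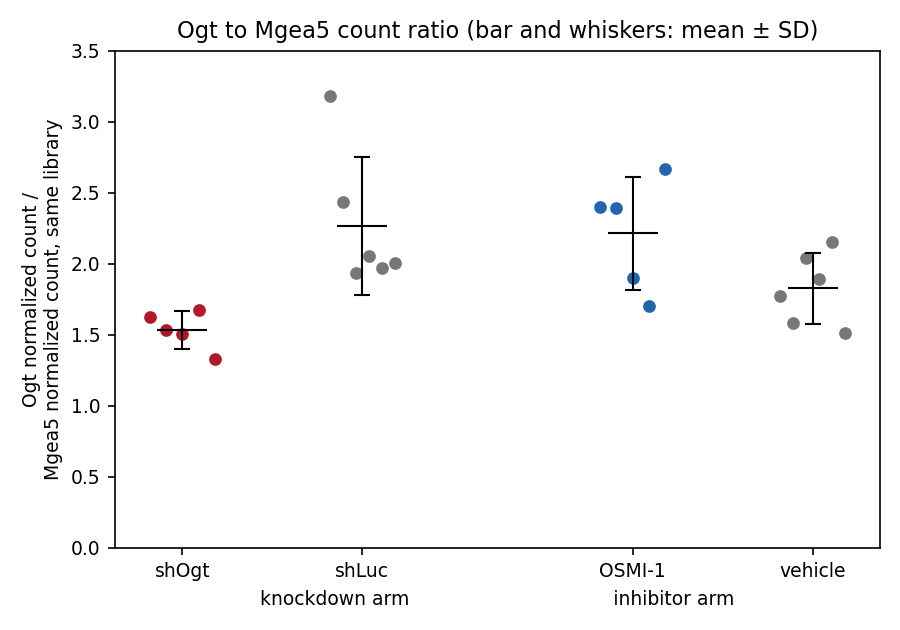
Ratio of Ogt to Mgea5 normalized counts in each library (vertical axis, starting at 0), with shOgt left of shLuc and OSMI-1 left of vehicle. Points are libraries, and bars and whiskers give the mean and SD. The shOgt libraries (1.33 to 1.67) lie below all shLuc libraries (1.94 to 3.18), whereas OSMI-1 (1.70 to 2.67) and vehicle (1.51 to 2.15) overlap.

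Hcfc1, the gene of the co-regulator HCF-1, lies on chrX:73942792-73966357 (GRCm38, minus strand) with 8360 exonic bases. It stood at 643, 636, 692, 527 and 640 normalized counts in shOgt replicates 1, 2, 3, 5 and 6, against 986, 917, 932, 643, 892 and 934 in shLuc replicates 1 to 6. The groups met at a single control library, shLuc replicate 4, which lay with the shOgt libraries while the other 5 shLuc libraries were all higher than any shOgt library. The mean was 628 ± 60.5 in shOgt and 884 ± 122 in shLuc, 71.0% of shLuc. Hcfc1 fell by 0.49 ± 0.11 (log2, limma adjusted p = 0.0018), and the call held without any one library, with log2 fold changes from -0.57 to -0.42.

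Hcfc1 also fell after the inhibitor. It stood at 590, 438, 426, 500.0 and 494 normalized counts in OSMI-1 replicates 1, 2, 4, 5 and 6, against 648, 613, 656, 666, 680 and 549 in vehicle replicates 1 to 6. Here the overlap came from OSMI-1 replicate 1, which was high, and vehicle replicate 6, which was low. The mean was 489 ± 64.9 in OSMI-1 and 635 ± 48.1 in vehicle, 77.0% of vehicle, with a log2 fold change of -0.38 ± 0.09 (limma adjusted p = 0.0031). In this comparison 13.2% of tested genes fell. Falling in both arms was shared by 636 of 11269 genes (5.64%). The difference between the arms was -0.10 ± 0.14 (limma on all 4 groups, adjusted p = 0.65), so a difference in either direction was not resolved, and of the 5 genes Hcfc1 was the one that passed the test downward in both arms.

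The start regions of Ogt and Hcfc1 are printed because these are the genes that passed the test in both arms, Ogt in opposite directions and Hcfc1 in one. Each is 300 bases from RefSeq (GRCm38.p6), 250 before and 50 from the annotated start, with matches in capitals on either strand. The motifs searched were AAGATGGC (YY1), CCGGAAG (GABPA), ACTACAA (ZFP143 and THAP11), GGGCGG (SP1) and TTTNNCGC (E2F), letters used here for factors that bind HCF-1. N stands for any base, so TTTNNCGC is a loose pattern and a match to it need not be an E2F site.
Ogt start region, chrX:101639801-101640100, plus strand: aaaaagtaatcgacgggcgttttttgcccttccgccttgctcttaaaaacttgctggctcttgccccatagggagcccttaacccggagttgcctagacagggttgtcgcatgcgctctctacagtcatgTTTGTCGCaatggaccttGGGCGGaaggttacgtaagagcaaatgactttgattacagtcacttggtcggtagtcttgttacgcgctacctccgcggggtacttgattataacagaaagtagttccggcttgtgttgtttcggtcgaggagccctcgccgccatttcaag
Hcfc1 start region, chrX:73966308-73966607, minus strand: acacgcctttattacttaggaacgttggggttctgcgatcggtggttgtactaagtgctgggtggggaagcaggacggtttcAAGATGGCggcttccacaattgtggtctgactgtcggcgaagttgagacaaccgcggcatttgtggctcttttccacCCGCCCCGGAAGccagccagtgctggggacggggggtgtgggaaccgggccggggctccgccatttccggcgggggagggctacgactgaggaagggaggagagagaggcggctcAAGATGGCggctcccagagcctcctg
The Hcfc1 region held AAGATGGC at positions -168 and 24 from the start, CCGGAAG at -86 and, sharing 1 base with it, the reverse of GGGCGG at -91. The Ogt region held GGGCGG at -102 and TTTNNCGC at -120. Over 32851 mouse start regions of this length, 2.75% held AAGATGGC, 8.86% CCGGAAG, 35.7% GGGCGG, 5.17% TTTNNCGC and 3.24% ACTACAA, and ACTACAA was in none of the 7 start regions of the 5 genes. The start regions of Mgea5, Bap1 and Sin3a, and a further Ogt start, held GGGCGG and no other of these words. These matches are descriptions of sequence, and binding was not measured.

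Bap1, the gene of the H2A deubiquitinase, lies on chr14:31251450-31259944 (GRCm38, plus strand). It stood at 2344, 2113, 2480, 2339 and 2545 normalized counts in shOgt replicates 1, 2, 3, 5 and 6, against 2917, 2652, 2257, 2253, 2332 and 2783 in shLuc replicates 1 to 6. Of the 6 shLuc libraries, 3 lay inside the shOgt range and 3 above it. The means were 2364 ± 166 in shOgt and 2532 ± 290 in shLuc, a log2 fold change of -0.09 ± 0.08 with a 95% interval from -0.26 to 0.07 (limma adjusted p = 0.41). After OSMI-1 it stood at 1046, 892, 881, 904 and 934 normalized counts, against 872, 917, 993, 914, 981 and 919 in vehicle. Those means were 931 ± 67.1 in OSMI-1 and 933 ± 45.6 in vehicle, a log2 fold change of -0.00 ± 0.07 with a 95% interval from -0.15 to 0.14 (limma adjusted p = 0.98). Both intervals leave out a change of the size seen for Hcfc1, whose log2 fold changes were -0.49 and -0.38.

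Sin3a, the gene of the deacetylase scaffold, lies on chr9:57072040-57128366 (GRCm38, plus strand). It stood at 292, 324, 299, 327 and 286 normalized counts in shOgt replicates 1, 2, 3, 5 and 6, against 327, 400, 473, 376, 363 and 472 in shLuc replicates 1 to 6. The groups touched at shOgt replicate 5 and shLuc replicate 1, while the other 4 shOgt libraries lay below all shLuc libraries. The mean was 305 ± 18.5 in shOgt and 402 ± 59.8 in shLuc, and Sin3a fell by 0.38 ± 0.12 (log2, limma adjusted p = 0.015). The shOgt libraries scattered little, with a coefficient of variation of 6.06% where counting error alone gives 5.95%, against 14.9% and 4.88% in shLuc. An antisense gene that shares 205 exonic bases with Sin3a, Man2c1os, stood at 16.6 to 25.4 normalized counts in shOgt and 7.16 to 23.0 in shLuc.

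After OSMI-1, Sin3a stood at 274, 208, 216, 203 and 211 normalized counts in replicates 1, 2, 4, 5 and 6, against 142, 209, 193, 232, 185 and 241 in vehicle replicates 1 to 6. Apart from the high OSMI-1 replicate 1, the OSMI-1 libraries lay inside the vehicle range. The means were 222 ± 29.5 in OSMI-1 and 200 ± 35.9 in vehicle, a log2 fold change of 0.16 ± 0.13 with a 95% interval from -0.11 to 0.43 (limma adjusted p = 0.40). The response differed between the arms by -0.54 ± 0.18 (limma on all 4 groups, adjusted p = 0.025). Without OSMI-1 replicate 1 this difference was -0.47 and no longer passed (adjusted p = 0.058).

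Read together, 4 of the 5 genes fell after the hairpin (Ogt, Mgea5, Hcfc1 and Sin3a) and none rose. The Mgea5 call was lost in 8 of 11 leave-one-out fits. Of all tested genes 31.8% were called in either direction, 16.4% downward and 15.4% upward, and the median log2 fold change of all genes was 0.01. Ogt is among the 4 as the hairpin's target. None of the 5 had all shOgt libraries above all shLuc libraries, as 8.83% of tested genes did. After OSMI-1, 2 of the 5 were called, Ogt upward and Hcfc1 downward, where 24.8% of all tested genes were called and the median was 0.00. None had all OSMI-1 libraries below all vehicle libraries, as 7.71% of tested genes did. With 5 genes these counts are too few to set the group apart from other genes, and no test was made over the group. The authors' deposited table, whose inhibitor fold change runs as vehicle over OSMI-1, lists adjusted p-values of 0.025 for Mgea5 and 0.0058 for Sin3a after the hairpin and 0.52 and 0.48 for them after OSMI-1.

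**Figure D3:**
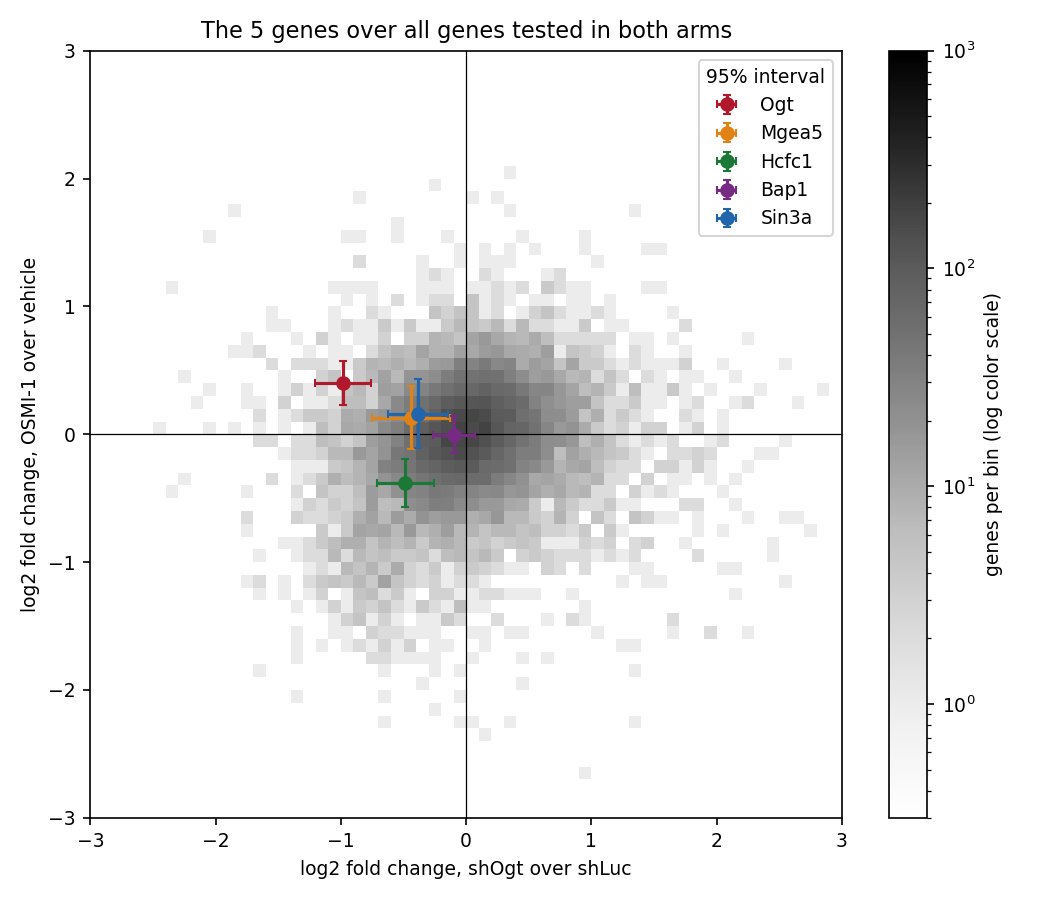
Log2 fold change after the Ogt hairpin (shOgt over shLuc, horizontal axis) against that after OSMI-1 (OSMI-1 over vehicle, vertical axis), with the 5 genes as colored points with 95% intervals over the number of genes per bin (grey, log color scale) among 11269 genes tested in both arms. Ogt sits at -0.98 and 0.40, Hcfc1 at -0.49 and -0.38, and Bap1 near 0 on both axes.

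Per kilobase of exon, which allows genes to be compared within a table, Bap1 was the most abundant of the 5 in every group, at 505 ± 35.5 normalized counts per kb in shOgt, 541 ± 61.9 in shLuc, 199 ± 14.3 in OSMI-1 and 199 ± 9.74 in vehicle. Mgea5 was the lowest in every group, at 32.7 ± 7.67 per kb in shOgt, 44.0 ± 6.95 in shLuc, 32.2 ± 4.98 in OSMI-1 and 29.4 ± 4.53 in vehicle. Between them the order changed with treatment. In shOgt the order was Hcfc1 (75.1 ± 7.24 per kb), Sin3a (56.7 ± 3.44) and Ogt (52.8 ± 7.94), with Sin3a and Ogt within their spread of each other. In shLuc it was Hcfc1 (106 ± 14.6), Ogt (104 ± 11.2) and Sin3a (74.6 ± 11.1), with Hcfc1 and Ogt not apart beyond their spread. In OSMI-1 it was Ogt (74.6 ± 5.29), Hcfc1 (58.5 ± 7.76) and Sin3a (41.3 ± 5.47), whereas in vehicle it was Hcfc1 (76.0 ± 5.75), Ogt (56.6 ± 4.68) and Sin3a (37.2 ± 6.67). Ogt and Hcfc1 thus stood in opposite order in OSMI-1 and vehicle. Among genes with a read and a known length, Ogt lay at percentile 65.8 in shOgt, 76.8 in shLuc, 78.0 in OSMI-1 and 73.8 in vehicle.

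The genes of proteins that work with these 5 were read from 6 lists of 64 genes in all, of which 63 were tested after the hairpin and 60 after OSMI-1. After the hairpin 7 rose and 4 fell, 17.5% of those tested, and after OSMI-1 7 rose and 6 fell, 21.7% of those tested. Of all genes 31.8% and 24.8% were called in these comparisons, so the share after OSMI-1 lies near that of all genes. The share after the hairpin is lower, but no test was made over the lists. The lists' median log2 fold changes of -0.02 and -0.01 lie close to the 0.01 and 0.00 of all genes. With another scaling (TMM) the hairpin count became 6 higher and 6 lower. Asxl3 was too low to be tested in either arm, and Mbd6, Sap30 and Ing2 in the inhibitor arm.

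The BAP1 and SIN3 lists held the partners nearest to Bap1 and Sin3a themselves. Of the BAP1 complex, 1 of 7 tested genes fell after the hairpin: Foxk2, a forkhead factor that binds BAP1, averaged 228 ± 32.2 normalized counts in shOgt and 321 ± 31.2 in shLuc (log2 -0.50 ± 0.12, limma adjusted p = 0.0039). After OSMI-1, 1 of 6 rose: Asxl2, a cofactor that activates BAP1, averaged 261 ± 34.0 in OSMI-1 and 160.5 ± 16.1 in vehicle (0.69 ± 0.12, limma adjusted p = 9.4e-05). Of the SIN3 complex, 4 of 20 rose and 1 fell after the hairpin. The risers were Sin3b, the paralogue of Sin3a (2491 ± 197 in shOgt, 1800 ± 205 in shLuc, log2 0.47 ± 0.08, limma adjusted p = 0.0002), the histone demethylase gene Kdm5a (0.53 ± 0.09), Arid4a (0.39 ± 0.11) and Fam60a (0.57 ± 0.17, adjusted p = 0.015, and 0.051 without shOgt replicate 6). Sin3b thus rose where Sin3a fell. Rbbp4, a histone chaperone, fell after the hairpin (2534 ± 224 in shOgt, 3233 ± 148 in shLuc, log2 -0.35 ± 0.07, limma adjusted p = 0.00056) and after OSMI-1 (1428 ± 146 in OSMI-1, 1844 ± 143 in vehicle, -0.37 ± 0.08, adjusted p = 0.00082).

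After OSMI-1, 2 of 18 SIN3 genes rose and 4 fell. Arid4b rose (369 ± 88.0 in OSMI-1, 216 ± 45.3 in vehicle, log2 0.77 ± 0.15, limma adjusted p = 0.0005). Sin3b also rose (0.22 ± 0.08, limma adjusted p = 0.044), a call lost without OSMI-1 2, 4 or 6 or vehicle 1, 2, 4, 5 or 6 (up to 0.14). Beside Rbbp4, its relative Rbbp7 (-0.33 ± 0.06), Fam60a (-0.56 ± 0.14) and the deacetylase gene Hdac2 (-0.52 ± 0.16) fell, the last not passing without vehicle 2, 3 or 4 (adjusted p up to 0.062). Fam60a after the hairpin, and Sin3b and Hdac2 after OSMI-1, are named outside the rule of 4 genes per list, after their values were seen. Fam60a went in opposite directions in the arms, and its difference between them was 1.13 ± 0.23 (limma on all 4 groups, adjusted p = 0.00051).

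Of the HCF-1 partners, 2 of 11 rose and 1 fell after the hairpin and 1 of 11 rose after OSMI-1. Creb3, a transcription factor that binds HCF-1, stood at 1977, 1996, 2335, 1881 and 1935 normalized counts in shOgt, against 1583, 1291, 1355, 1151, 1386 and 1293 in shLuc, with no overlap. It rose after the hairpin (log2 0.59 ± 0.08, limma adjusted p = 2.1e-05) and after OSMI-1 (664 ± 79.9 in OSMI-1, 511 ± 62.7 in vehicle, 0.38 ± 0.10, adjusted p = 0.0063). Hcfc1r1, whose product regulates HCF-1, rose after the hairpin (0.59 ± 0.12, adjusted p = 0.00075) and was at -0.03 ± 0.12 after OSMI-1. E2f4 fell after the hairpin (-0.53 ± 0.17, adjusted p = 0.021), a call lost without shOgt replicate 2 or 5 (up to 0.073). Of the H3K4 methyltransferase genes, 1 of 11 rose after the hairpin, and 1 rose and 1 fell after OSMI-1. The riser after OSMI-1 was Kmt2a, a methyltransferase (307 ± 59.3 in OSMI-1, 203 ± 15.5 in vehicle, 0.57 ± 0.12, adjusted p = 0.0012). Men1, a partner of KMT2A, rose after the hairpin by 0.19 ± 0.07 (adjusted p = 0.045) and fell after OSMI-1 by 0.32 ± 0.10 (adjusted p = 0.016). The first Men1 call failed when shOgt 1, 2, 3, 5 or 6 or shLuc 1, 3, 4 or 5 was left out (up to 0.097), and with all libraries under TMM scaling (0.061), a replicate block (0.082) and edgeR, which put it just above 0.05. The second failed when OSMI-1 5 was left out (0.060).

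Of the NSL acetyltransferase complex, which also binds OGT, Phf20 changed most. It stood at 776, 730.0, 682, 710 and 752 normalized counts in shOgt, against 1163, 1327, 1227, 1206, 1157 and 1322 in shLuc, and at 920, 774, 1003, 1026 and 1048 in OSMI-1, against 731, 635, 609, 612, 579 and 596 in vehicle. The groups overlapped in neither arm. Phf20 fell after the hairpin (log2 -0.76 ± 0.08, limma adjusted p = 3.9e-07) and rose after OSMI-1 (0.60 ± 0.09, adjusted p = 1.6e-05), the directions shown by Ogt, and the difference was -1.36 ± 0.11 (limma on all 4 groups, adjusted p = 1.4e-10). Mcrs1 of the same complex fell after OSMI-1 (615 ± 55.7 in OSMI-1, 874 ± 65.4 in vehicle, -0.51 ± 0.08, adjusted p = 4.5e-05), so the list held 1 riser and 1 faller of 7 in that arm and 1 faller of 7 in the other. Of the other OGT-binding genes, none of 7 was called after the hairpin. Tet2, a gene for a DNA methylcytosine oxidase, rose after OSMI-1 (0.55 ± 0.18, adjusted p = 0.024), a call lost without OSMI-1 4 or 6 or vehicle 3 or 6 (up to 0.060) and under a replicate block (0.063).

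Of all genes 22.9% differed between the arms, against 15% of the 60 partner genes tested in both, a gap that was not tested. The differing partner genes numbered 9. They were Phf20, Fam60a, Foxk2 (-0.79 ± 0.18), Asxl2 (-0.77 ± 0.19), Hcfc1r1 (0.62 ± 0.17), Men1 (0.51 ± 0.12) and Mcrs1 (0.49 ± 0.11), with Hdac2 (0.77 ± 0.22) and the low and variable Sap30l (1.47 ± 0.54) outside the rule for named genes, all in log2 units as hairpin minus inhibitor response. The word AACATGC shown above for Ogt was also in a 3′UTR of Phf20, Asxl2 and Tet2. These are 3 of the 16 named partner genes with a 3′UTR to search, where 8.61% of all genes with one hold the word. Of the 4 partner genes that fell after the hairpin 1 held it, Phf20, while Asxl2 and Tet2 were not called there. As the word came from genes that fell in these data, these counts support nothing by themselves.

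**Figure D4:**
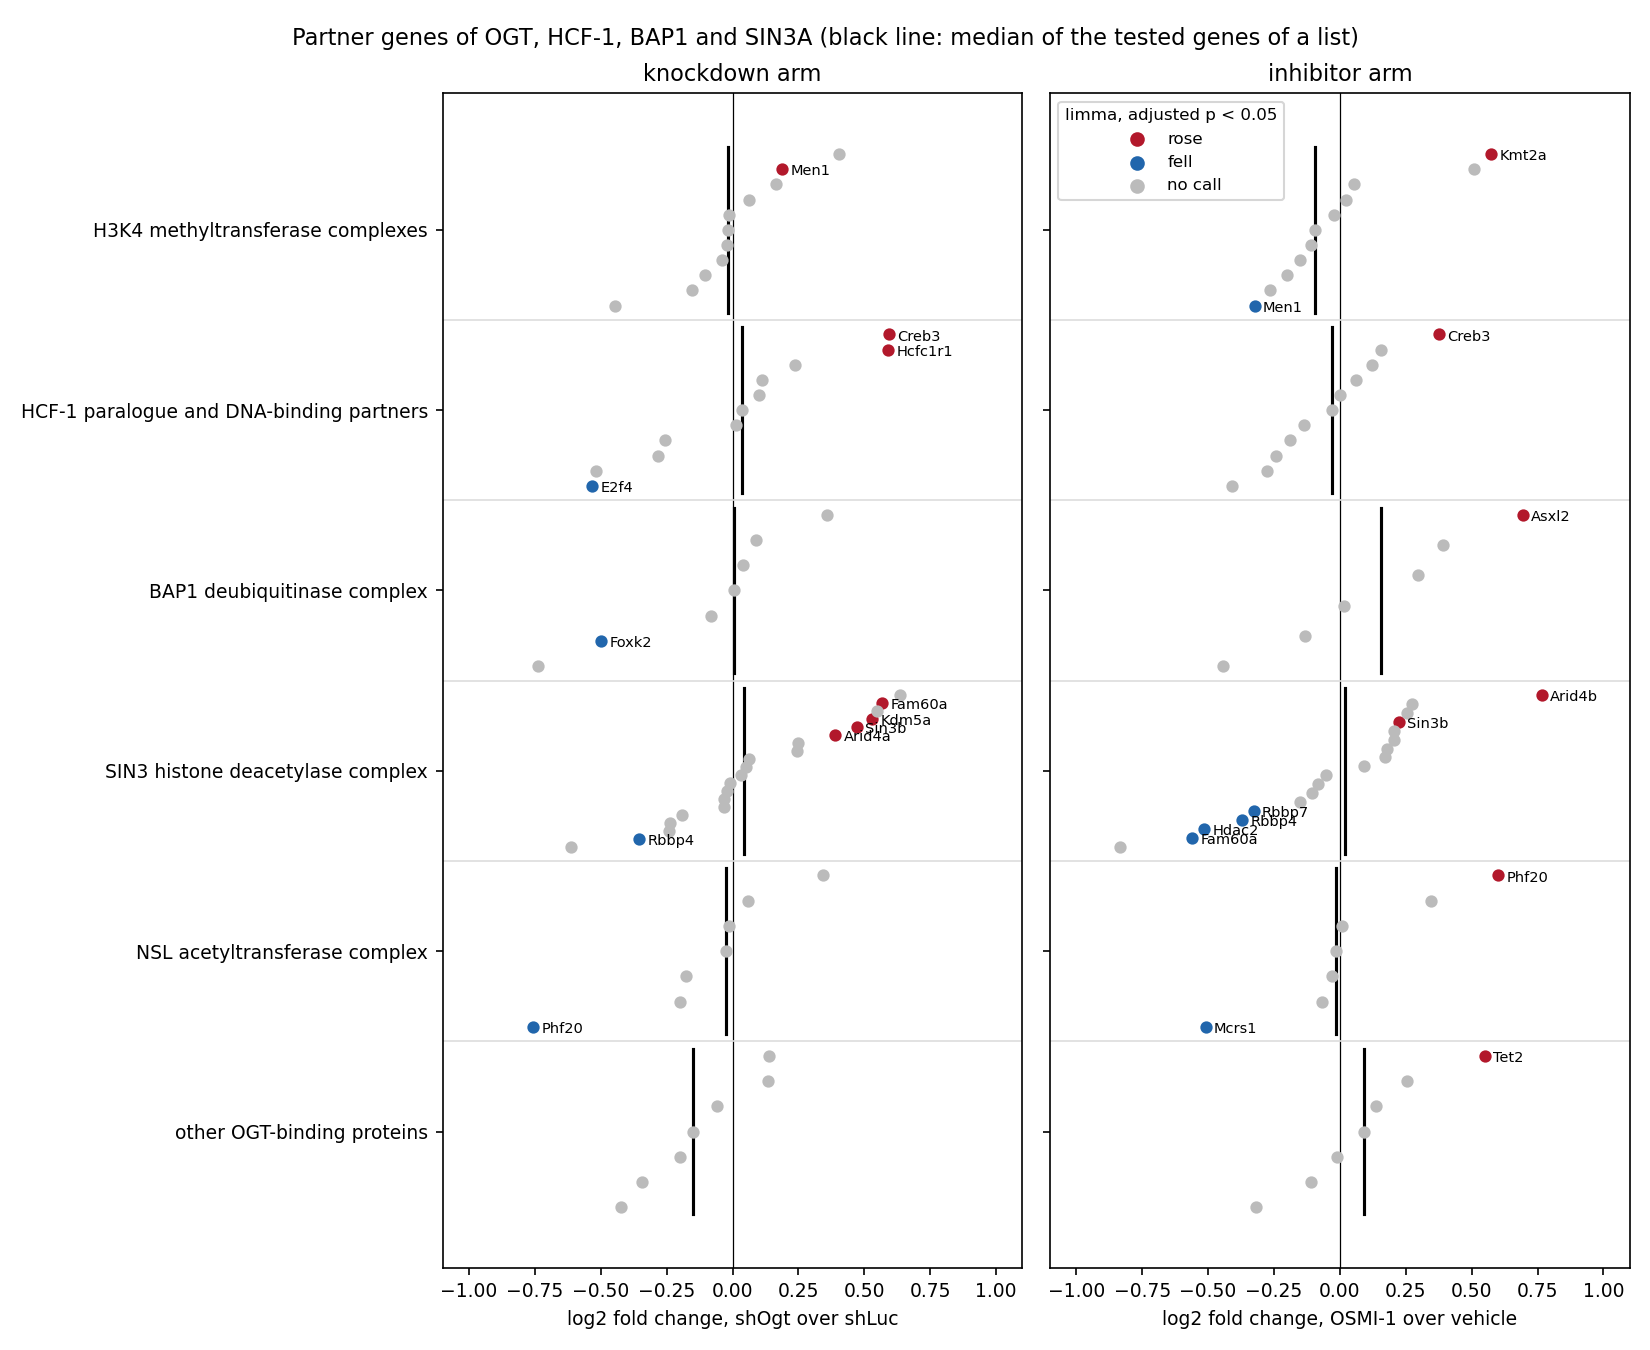
Log2 fold change of each tested partner gene by list, after the Ogt hairpin (shOgt over shLuc) and after OSMI-1 (OSMI-1 over vehicle). Red points rose, blue points fell and grey points did not pass the test, and black lines mark list medians. Phf20 lies at -0.76 after the hairpin and 0.60 after OSMI-1, while the list medians lie between -0.15 and 0.16.

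The genes whose levels followed each of the 5 most closely were found by Pearson r over the 22 libraries, each value taken relative to the control mean of its arm, among 6990 well expressed genes. The r values reflect the differences between groups as well as the scatter within them, and are given as descriptions. Genes were thus picked partly for sharing the directions of change, so matching signs below support nothing by themselves. Ogt was followed by Hmgcs1, an enzyme of cholesterol synthesis (r = 0.98), Laptm4b, a lysosomal membrane protein gene (0.97), and Gng12, a G protein subunit gene (0.96). As for Ogt, their log2 fold changes were negative after the hairpin (-1.15, -0.69 and -0.94) and positive after OSMI-1 (0.34, 0.34 and 0.27). Mgea5 was followed by the Wnt receptor gene Fzd3 (0.88), Ankrd40 (0.87) and the membrane protease gene Adam10 (0.86), with log2 fold changes of -0.41, -0.38 and -0.50 after the hairpin and of 0.10, 0.03 and 0.00 after OSMI-1.

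Hcfc1 was followed by Mthfd1, an enzyme of folate metabolism (r = 0.88), Smpdl3b (0.86) and Ccdc134 (0.83). Their log2 fold changes were negative in both arms, at -0.48, -0.72 and -0.65 after the hairpin and -0.37, -0.51 and -0.45 after OSMI-1. Sin3a was followed by the proteasome activator gene Psme3 (0.85), the deubiquitinase gene Usp2 (0.84) and the co-repressor gene Ski (0.81), whose log2 fold changes were -0.75, -0.38 and -0.56 after the hairpin and 0.14, 0.22 and -0.10 after OSMI-1. Bap1 had the loosest followers, Safb2 (0.80), D8Ertd82e (0.67) and Eif2s3x (0.66). Their log2 fold changes were -0.19, -0.46 and -0.18 after the hairpin and 0.03, -0.04 and -0.01 after OSMI-1. D8Ertd82e was called lower after the hairpin (limma adjusted p = 0.0034), where Bap1 was not called. None of the 5 genes was among the 3 closest to another of them. The word AACATGC was in a 3′UTR of 5 of the 14 followers with one to search, where 10.2% of the searched candidates hold it: Hmgcs1 and Gng12 for Ogt, Fzd3 and Ankrd40 for Mgea5 and Eif2s3x for Bap1. Mgea5 and Bap1 themselves lack the word. It was first seen among the genes that fell most after the hairpin, and Hmgcs1, Gng12, Fzd3 and Ankrd40 also fell after it. This share thus supports nothing by itself, and the 3′UTRs were not matched for length.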

How the data were processed

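RNA was measured by sequencing in 22 libraries, grouped by the sample labels. Per the labels' protocols the libraries were poly(A) libraries of a strand-specific kit, while the design text gives Smart-Seq2 instead. STAR, RSEM and DESeq2 are named without versions in the submitters' processing notes, and the build given there is hg38, although the genes carry mouse symbols. Coordinates are therefore from GENCODE M21 and RefSeq, not from the authors' build. Per the file headers, the authors deposited in each of 2 tables the normalized counts of 24411 genes (a signal, counts divided by a size factor), a log2 fold change, a Wald score, and p-values. The deposited inhibitor fold runs as vehicle over OSMI-1.

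All positive values were whole multiples of 1 read per library (within 0.001), so reads were recovered for filtering. No 2 libraries of a group agreed within sampling noise. Within each arm, limma 3.58.1 (R 4.3.3) with an intensity trend was run on log2(normalized count + 1), which understates changes of low genes, after edgeR 4.0.16 filterByExpr (minimum count 10, minimum total 15). P-values were two-sided, adjusted over all tested genes by Benjamini and Hochberg, and called at 0.05. Differences between arms came from 1 limma fit of all 4 groups. Each table has its own normalization, and levels are set side by side only within a table. The code was tested on simulated data.

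The genes, lists and tests were chosen with earlier results of these data known. The text names the 5 genes, up to 4 called genes per partner list and arm by adjusted p, and the 3 genes most like each of the 5 with a mean normalized count of at least 100 in each arm. Alternatives were pseudocounts of 0.5 and 5, no filter, TMM scaling, a replicate block, edgeR's quasi-likelihood test and DESeq2 1.42.0 on the recovered reads, leaving out each library, and leaving out shOgt 3, shLuc 1 and 3, OSMI-1 5 and vehicle 1 together.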

Additional observations from a re-analysis of the deposited data

Results flagged for a closer look

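Among 92 groups of libraries examined (each of 23 genes or ratios in each of the 4 groups), 9 had a library far from the rest by Dixon's 95% criterion, and chance alone gives about 1 in 20. For the 5 genes these were Mgea5 in shOgt replicate 6 (395 normalized counts, the highest) and in shLuc replicate 1 (261, the lowest), Ogt in shLuc replicate 2 (1004, the highest), Hcfc1 in shLuc replicate 4 (643, the lowest) and Sin3a in OSMI-1 replicate 1 (274, the highest). For partner genes they were Creb3 in shOgt replicate 3 (2335, the highest), Arid4b in shLuc replicate 3 (258, the lowest), Fam60a in shLuc replicate 2 (344, the highest) and Phf20 in vehicle replicate 1 (731, the highest).

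Responses that differed between the arms (log2 change after the hairpin minus log2 change after OSMI-1, limma on all 4 groups) were those of Ogt (-1.38), Mgea5 (-0.57) and Sin3a (-0.54). Of the named partner genes, Phf20 (-1.36), Foxk2 (-0.79) and Asxl2 (-0.77) had the lower response after the hairpin, and Fam60a (1.13), Hcfc1r1 (0.62), Men1 (0.51) and Mcrs1 (0.49) the higher. The arms differ in agent, duration, depth and the share of reads of the ribosomal precursor Rn45s (0.921 to 1.23% in shOgt, 0.938 to 1.25% in shLuc, 6.69 to 10.5% in OSMI-1, 4.81 to 14.2% in vehicle), and these cannot be told apart here.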

How the results depend on the processing

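No call of the 5 genes changed direction under the alternatives or the leave-one-out fits, while the uncalled Bap1 log2 fold change after OSMI-1 ran from -0.05 to 0.02. The calls of Ogt, Hcfc1 and Sin3a after the hairpin and of Ogt and Hcfc1 after OSMI-1 held under each alternative and each single library left out. Mgea5 after the hairpin ran from -0.57 to -0.38 (log2) over the leave-one-out fits, and its difference between the arms from -0.70 to -0.49, both losing the call without the libraries named in the text. The Sin3a difference ran from -0.60 to -0.45, with the call lost without OSMI-1 1. Genes called numbered 3209 to 3893 after the hairpin and 2427 to 2671 after OSMI-1 over the leave-one-out fits. Same-numbered libraries deviated together with r of -0.01 to 0.16 between shOgt and shLuc and of -0.10 to 0.05 between OSMI-1 and vehicle. Of the 5 shOgt and the 5 OSMI-1 libraries, 1 and 0 correlated best with their own number. Such values cannot exclude that the numbers pair samples, and a replicate block was among the alternatives. On the hairpin libraries of that block but without it (shLuc 4 left out), 3549 genes were called. After OSMI-1 at least 2427 were called with any 1 library left out. With a replicate block, 3966 genes were called after the hairpin and 2373 after OSMI-1, and the genes among the 5 that differed between the arms numbered 1 instead of 3, with Mgea5 at -0.53 (adjusted p = 0.058) and Sin3a at -0.55 (adjusted p = 0.054). With that block the partner genes called after the hairpin were 6 higher and 6 lower. Single partner genes were recomputed under TMM scaling, the block, edgeR and leave-one-out fits only, and their differences between the arms under none. The cause of these changes was not tested. With 5 and 6 libraries and 139 to 3261 reads per gene and library, changes smaller than the intervals given for Bap1 were not resolved.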
